A study of Saccharomyces cerevisiae with 18 samples.

Results

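The *COS* genes are a family of closely alike genes near the ends of the chromosomes of *Saccharomyces cerevisiae*, and *COS1* to *COS10* were followed here across all strains and colony ages of the series. The members were matched by symbol in the annotation of the array's spots, and all 10 were found among the 5543 genes named on the array. RNA was compared between colonies of 3 strains: BR-F, a wild strain that forms structured biofilm colonies, BR-S, the smooth domesticated strain that arose from BR-F, and BR-RF, a feral strain with structured colonies that arose from BR-S in a long static culture under starvation. All colonies grew on glycerol agar without a fermentable sugar and were harvested on day 4 or day 7, and polyA RNA of 2 strains was hybridised together on 18 two-colour spotted arrays, with 3 arrays for each of the 3 couples of strains on each day. BR-RF is 1 subclone, chosen for its stability, so its values are those of 1 feral isolate.

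Cos proteins are membrane proteins that carry ubiquitin and help to draw other surface proteins into the multivesicular body, the late endosome that passes its load to the vacuole for breakdown. Their genes lie in subtelomeric chromatin, where the Sir proteins, Hda1 and related histone deacetylases keep many genes low, and the family is known to be raised when nutrients run short. The spots of this array carry whole reading frames, so RNA of one *COS* copy can bind to the spot of another, and each ratio below is that of a spot with an unknown share of its relatives' RNA. No sequences are printed here, and the degree of this cross-binding was not tested.

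Ratios are on the log2 scale, with the strain named first over the strain named second, and ± gives the standard error (SE) from a limma fit of 2 biological replicates in each couple and day. The fit takes 1 spread per gene from all couples and days, so an SE is not the spread within a single comparison. For each couple and day, the deposited record names arrays 1 and 2 as a dye swap of one RNA, and they form biological replicate 1, while array 3 is replicate 2. Calls were made at a Benjamini-Hochberg adjusted p under 0.05 over all genes measured in both replicates, of which there were 4350 to 4984 in a couple and day. The study's methods call the arrays biological replicates without naming separate cultures, so the p-values measure only the spread between them. The named spots used numbered 8040 to 10291 per array, and across genes the biological replicates of a couple and day correlated at r = 0.354 to 0.757, where genes do not count as independent replicates. *FLO11*, the adhesin expected to separate structured from smooth strains, could not serve to check the labels: its spot was measured on 10 of the 18 arrays, with ratios of -0.29 to 0.25.

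The *COS* spots differed in how well they were measured. *COS1* to *COS9* were measured on all 18 arrays, with both spots of each gene, and *COS10* on 9. The median intensity above background, divided by that background, was highest in Cy5 for *COS3* (10.6 times) and in Cy3 for *COS7* (7.84 times). It was lowest for *COS10*, at 1.30 times in Cy3, and for *COS2*, at 1.72 times in Cy5. The 2 spots of a gene on an array were close, with median differences of 0.056 (*COS2*) to 0.16 (*COS10*) on the log2 scale. These values rank the quality of the spots and not the level of the genes. In the reference annotation the members lay at 10 chromosome ends, with 0 to 5 annotated genes between them and the end. *COS2* (YBR302C, chromosome II), *COS5* (YJR161C, chromosome X) and *COS7* (YDL248W, chromosome IV) had no annotated gene outside them, and *COS4* (YFL062W, chromosome VI) had the most.

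*COS* genes had lower ratios in the feral BR-RF than in the wild BR-F on both days, and up to 4 of them passed the test. The RNA came from whole colonies, so fewer cells with a transcript and less of it per cell cannot be told apart. On day 4 *COS8* (YHL048W, chromosome VIII) and *COS10* (YNR075W, chromosome XIV) were called lower, which was 2 of the 10 members tested and 0 called higher, while 3.07% of all genes were called lower. The fitted ratios of all 10 members were below 0, with a median of -0.61 against -0.0046 for all genes. The ratio was below 0 in both biological replicates for 9 of the 10, as for 29.6% of all genes.

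*COS8* had ratios of -0.99, -0.63 and -1.14 on arrays 1 to 3 in BR-RF over BR-F at day 4. All 3 arrays lay below 0, and the fit gave -0.97 ± 0.16, a fold of 1.96 lower in BR-RF (adjusted p = 0.00677, limma). *COS10* was measured on arrays 1 and 3 only, at -1.04 and -0.81, with a fitted ratio of -0.92 ± 0.18 (adjusted p = 0.0265, limma). On array 1 its signal above background was 0.86 (Cy3) and 0.88 (Cy5) times that background. With only spots at or above the background in both channels, *COS10* could not be tested. Both arrays had BR-RF in Cy5, so the dye effect of *COS10* did not cancel. Leaving out array 3, the whole of biological replicate 2, left 1 replicate in this couple and day. Both calls then ended, with ratios of -0.81 (*COS8*) and -1.04 (*COS10*), and calls over all genes fell as well. Without array 1 *COS8* was the only call, and *COS10* could not be tested.

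The other 8 members did not pass the test on day 4. *COS5* (-0.71 ± 0.20, adjusted p = 0.0678), *COS3* (-0.70 ± 0.21, adjusted p = 0.0854), *COS7* (-0.66 ± 0.27, adjusted p = 0.203) and *COS1* (-0.56 ± 0.20, adjusted p = 0.15) came nearest in size (limma). *COS4* had -0.45 ± 0.16, *COS6* -0.34 ± 0.15 and *COS9* -0.23 ± 0.15. *COS2* alone had no offset in the mean: its arrays read 0.21, 0.54 and -0.38, and the fit gave -0.0011 ± 0.30. The arrays of *COS1* were also far apart, at -0.04, -1.21 and -0.50.

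On day 7 the same couple had 4 of 10 members called lower and 0 higher, beside 7.44% of all genes called lower. They were *COS6*, *COS7*, *COS8* and *COS10*, and the median of the 10 was -0.55 against -0.014 for all genes. All 10 fitted ratios were below 0, and 9 were below 0 in both replicates, as were 32% of all genes. *COS8* read -0.61, -1.35 and -1.17 on its arrays. These lay below 0 throughout, and the fitted -1.07 ± 0.16 (2.10-fold lower, adjusted p = 0.00149, limma) was close to that of day 4. *COS7* read -1.95, -1.41 and -0.48, with a fitted ratio of -1.08 ± 0.27 (adjusted p = 0.0197, limma). It was -1.68 without array 3, and with the deposited value table its call was lost (-0.76, adjusted p = 0.072, limma). *COS10* read -0.73 and -1.02 on arrays 2 and 3 and gave -0.87 ± 0.18 (adjusted p = 0.0157, limma). This call was lost without array 3, which left 1 replicate. In Cy3, the BR-RF channel, its signal above background was 0.54 and 0.47 times that background on these arrays. With only spots at or above the background in both channels, *COS10* could not be tested. BR-F was in Cy5 on both arrays, so the dye effect of *COS10* did not cancel.

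*COS6* (YGR295C, chromosome VII) was the call nearest to the threshold in BR-RF over BR-F at day 7. Its arrays were close, at -0.48, -0.64 and -0.42, and gave -0.49 ± 0.15 (adjusted p = 0.0487, limma). This call was lost under 9 of 16 other settings, in which the ratio was -0.56 to -0.39. *COS1* (-0.64 ± 0.20, adjusted p = 0.0544), *COS3* (-0.56 ± 0.21, adjusted p = 0.0967), *COS5* (-0.53 ± 0.20, adjusted p = 0.105), *COS4* (-0.45 ± 0.16, adjusted p = 0.0906) and *COS9* (-0.32 ± 0.15, adjusted p = 0.183) did not pass (limma). Array 1 of this couple read far lower than arrays 2 and 3 for *COS3* (-1.62 against -0.32 and -0.15), *COS5* (-1.27 against -0.62 and -0.11) and *COS2* (-1.48 against 0.17 and 0.25). With the authors' normalised value table in place of the array files, or without array 2, 2 of the members were called. Over all genes 388 of 4985 and 305 of 4419 were then called lower.

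**Figure D1:**
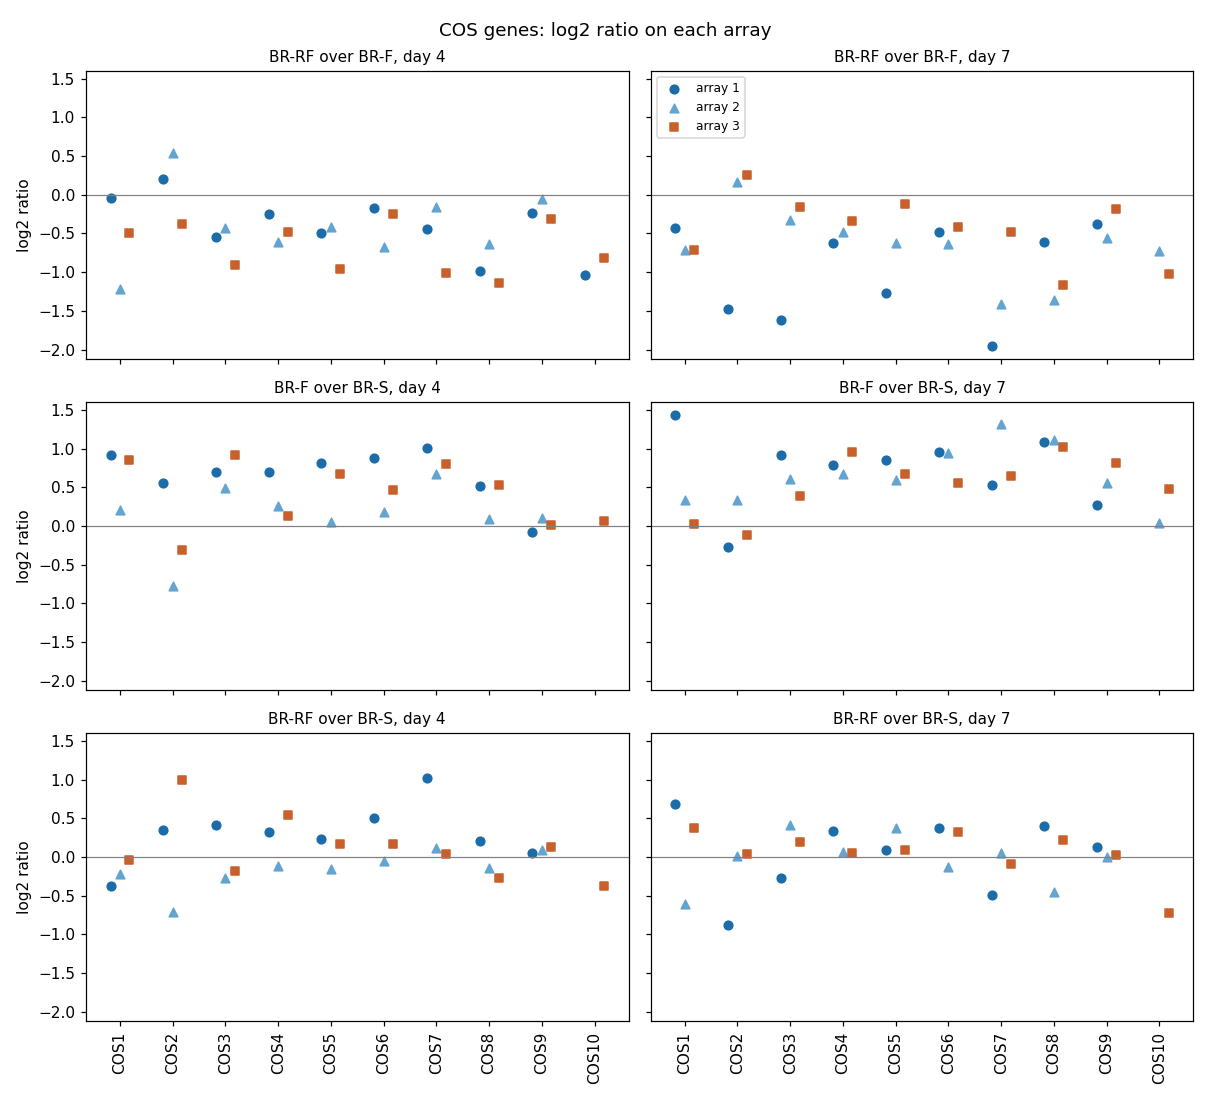
Log2 ratio (vertical axis) of each *COS* gene on each array, with 1 panel per couple of strains and day; circles and triangles are the dye-swapped arrays 1 and 2 of one RNA, squares are array 3, and a missing symbol means that the spots were not usable. In BR-RF over BR-F nearly all points lie below 0 and in BR-F over BR-S nearly all lie above it, with *COS2* on both sides in every couple and day.

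Between BR-F and the smooth BR-S 5 *COS* genes were higher in BR-F on day 7, and no member was called on day 4. On day 4, 0 of 9 members tested were called, beside 2.97% of all genes called higher. At an unadjusted p under 0.05 in limma there were 6 members, and the share of all genes at that looser threshold was not taken. With a fold of at least 1.5 required as well, 3 members were higher, beside 6% of all genes. The median of the 9 was 0.49 against -0.0027 for all genes (0.32 without array 1, and 0.13 to 0.67 over all settings tried), and 8 of 9 lay above 0 in both replicates, as did 32.3% of all genes. *COS7* had the largest mean (0.82 ± 0.27, adjusted p = 0.116), with arrays at 1.01, 0.67 and 0.80. *COS3* (0.75 ± 0.21, adjusted p = 0.0688) read 0.69, 0.49 and 0.92, and *COS1* (0.71 ± 0.20, adjusted p = 0.0752) read 0.92, 0.20 and 0.85 (limma). All 3 arrays of these genes were above 0.

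*COS5* (0.55 ± 0.20), *COS6* (0.49 ± 0.15), *COS8* (0.42 ± 0.16) and *COS4* (0.30 ± 0.16) had smaller ratios in BR-F over BR-S at day 4, with adjusted p from 0.0879 to 0.379 (limma). *COS9* was near 0, at -0.08, 0.10 and 0.02 on its arrays, and *COS2* had -0.21 ± 0.30 with arrays at 0.56, -0.78 and -0.31. *COS10* was measured on 1 array, at 0.06, and was not tested. Array 2 was the lowest of the 3 for all members measured on the 3 arrays but *COS4* and *COS9*. Without array 2, 3 members were called, beside 144 of 4186 genes called higher.

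On day 7 in BR-F over BR-S, 5 of 10 members were called higher and 0 lower, beside 6.08% of all genes called higher. These were *COS4*, *COS5*, *COS6*, *COS8* and *COS9*, and the median of the 10 was 0.65 against -0.0022 for all genes. The ratio was above 0 in both replicates for 9 of the 10, as for 37.4% of all genes. *COS8* had close arrays, at 1.08, 1.11 and 1.02, with a fitted 1.06 ± 0.16 (2.08-fold higher in BR-F, adjusted p = 0.00247, limma), which was 0.67 with loess within print tips and still called. *COS4* read 0.79, 0.67 and 0.96 (0.84 ± 0.16, adjusted p = 0.00865, limma). *COS6* read 0.96, 0.94 and 0.55 (0.75 ± 0.15, adjusted p = 0.0098, limma). All 3 arrays of these 3 genes lay well above 0.

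*COS5* (YJR161C) read 0.86, 0.60 and 0.67 in BR-F over BR-S at day 7 (0.70 ± 0.20, adjusted p = 0.0485, limma), and *COS9* (YKL219W, chromosome XI) read 0.27, 0.55 and 0.81 (0.61 ± 0.15, adjusted p = 0.0252, limma). *COS7*, with arrays at 0.53, 1.32 and 0.65, was as far above 0 as the called genes but had a larger SE (0.79 ± 0.27, adjusted p = 0.0835, limma). That SE is drawn from all couples and days, and the *COS7* replicates in this comparison were 0.92 and 0.65. *COS3* (YML132W, chromosome XIII) had 0.58 ± 0.21, *COS1* (YNL336W, chromosome XIV) 0.46 ± 0.20, *COS10* 0.26 ± 0.18 and *COS2* -0.04 ± 0.30, with adjusted p from 0.102 to 0.944 (limma). For *COS1* array 1 alone was high, at 1.43 against 0.34 and 0.03. Without array 3, which left 1 replicate, all 5 calls were lost, and calls over all genes fell as well. The ratios of the 5 were then 0.41 (*COS9*) to 1.10 (*COS8*).

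BR-RF and BR-S, the feral strain and its smooth parent, did not differ in a called *COS* gene on either day. On each day 0 of 9 members tested passed, while calls in either direction covered 4.79% of all genes on day 4 and 15.9% of them on day 7. At an unadjusted p under 0.05 in limma there were 0 members, and the share of all genes at that threshold was not taken. The medians were 0.10 on day 4 and 0.12 on day 7. On day 4 the fitted ratios ran from -0.17 (*COS1*) to 0.41 (*COS2*), and on day 7 from -0.20 (*COS2*) to 0.23 (*COS6*).

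For *COS8* the BR-RF over BR-S arrays read 0.21, -0.15 and -0.28 on day 4 and 0.40, -0.45 and 0.22 on day 7. They lay on both sides of 0. The 95% interval of the ratio was -0.47 to 0.22 on day 4 and -0.24 to 0.44 on day 7, so a difference of 1 on the log2 scale in either direction lay outside both. For *COS7* the interval reached from -0.28 to 0.89 on day 4 and from -0.74 to 0.43 on day 7, so smaller differences could not be seen at this precision. *COS10* was measured on array 3 only, at -0.38 on day 4 and -0.72 on day 7, and was not tested.

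**Figure D2:**
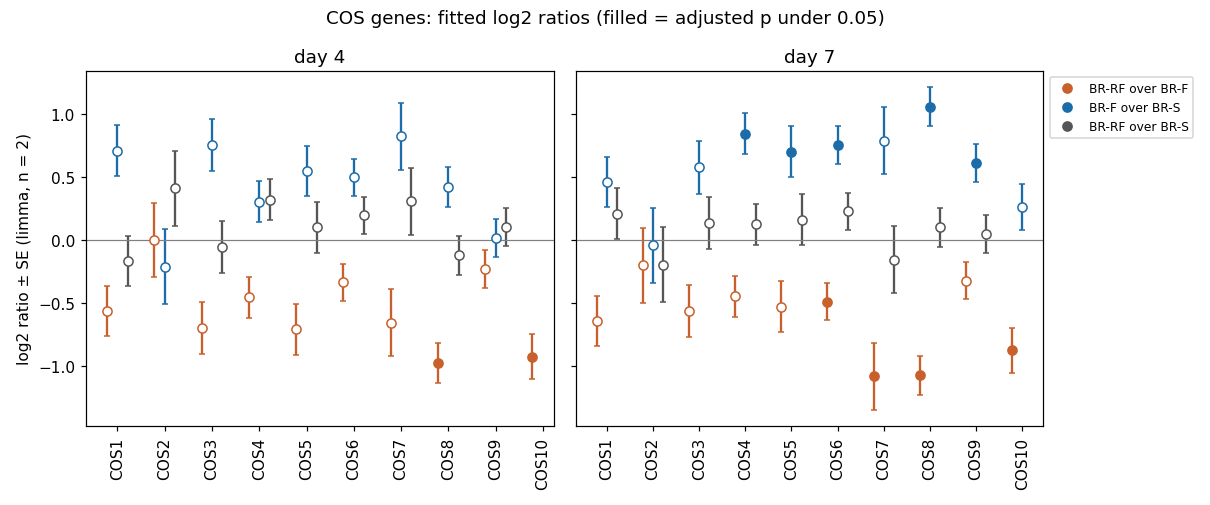
Fitted log2 ratio (vertical axis) of each *COS* gene in the 3 couples of strains on day 4 and day 7, with bars of 1 SE from the limma fit (2 biological replicates); filled symbols passed an adjusted p of 0.05, and untested values of *COS10* are left out. BR-RF over BR-F lies below 0, BR-F over BR-S mostly above it and BR-RF over BR-S around it, and the called genes are 2 and 4 in the first couple and 0 and 5 in the second.

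The 3 couples share strains, so they are not independent comparisons, but each couple had its own arrays and their sums can be set against each other. The ratios of both couples that contain BR-F put BR-F above the other strains for 8 of the 9 members tested in all 3 couples on each day, as for 32.5% of all genes on day 4 and 31.1% on day 7. *COS2* was the exception on both days. For *COS8* on day 7, -1.07 in BR-RF over BR-F and 1.06 in BR-F over BR-S sum to -0.02, and the arrays of BR-RF over BR-S gave 0.10 directly. For *COS4* on day 4 the gap between the direct ratio and the sum was 0.47 with an SE of 0.28. The median gap without regard to sign was 0.31 on day 4 and 0.12 on day 7 over the 9 members. Over all genes it was 0.179 and 0.184, so on day 4 the members had the larger gap. The largest gap was 0.62 on day 4 (*COS2*) and 0.39 on day 7 (*COS1*). Of the 9 members 0 had a gap above 2 SE on either day.

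A fit with 1 term for each strain and day joins these arrays, so that every ratio draws on all 3 couples. In it *COS1*, *COS3*, *COS5*, *COS8* and *COS10* were lower in BR-RF at day 4 than in BR-F (5 of 10, beside 7.06% of all genes). On day 7, 9 of 10 were lower (13.9% of all genes), all members except *COS2*. BR-F was above BR-S for 7 of 9 on day 4 (7.43% of all genes) and 8 of 10 on day 7 (12.7% of all genes). In BR-RF over BR-S 0 of 9 were called on either day in this fit. *COS8* had -0.83 ± 0.13 and -1.03 ± 0.13 in BR-RF over BR-F at days 4 and 7, and 0.56 ± 0.13 and 1.09 ± 0.13 in BR-F over BR-S. *COS10*, with fewer arrays, had -0.83 ± 0.19 and -0.90 ± 0.16 in BR-RF over BR-F. At the thresholds named in the study's methods, 1.5-fold and a p under 0.05 taken here from limma without adjustment, 5 members were lower in BR-RF over BR-F at day 4 (6.01% of all genes) and 4 on day 7 (10% of all genes). Members higher in BR-F over BR-S were 3 on day 4 (6% of all genes) and 6 on day 7 (8.71% of all genes).

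No member was called in the difference between the days. The fit gave 0 of 10 in BR-RF over BR-F, 0 of 9 in BR-F over BR-S and 0 of 9 in BR-RF over BR-S, where 0.523%, 0.311% and 0.352% of all genes were called in either direction. In BR-F over BR-S, 3 members had an unadjusted p under 0.05 in limma and 0 in the other couples. The share of all genes at this looser threshold was not taken. *COS8* had a difference of 0.64 ± 0.22 (adjusted p = 0.387, limma), *COS9* one of 0.60 ± 0.21 (adjusted p = 0.398) and *COS4* one of 0.54 ± 0.23 (adjusted p = 0.513). For *COS9* the ratio went from 0.014 on day 4 to 0.61 on day 7. The strains of array 3 changed dyes between the days in each couple, so these differences also carry the dye effect of a gene.

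The members moved together across the arrays, with the exception of *COS2*. Over the 12 ratios of biological replicates, the 36 pairs among the 9 members measured throughout had correlations of -0.055 to 0.958 with a median of 0.828. These ratios share strains and the spots may share RNA, so the correlations are given as a description. *COS3* and *COS5* (r = 0.958) and *COS6* and *COS8* (r = 0.952) were the closest pairs. Against the median of the other members *COS8* (0.942) and *COS5* (0.941) lay highest, *COS9* was at 0.808 and *COS2* at 0.110.

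*COS2* also had the lowest median dye effect among the members with swapped pairs. The mean of the Cy5 over Cy3 log2 ratios of the swapped arrays 1 and 2 cancels the strains and leaves the dye effect. This mean also keeps errors of the single arrays. For *COS2* it was below 0 in all 6 couples and days, from -0.83 to -0.16 with a median of -0.49. *COS7* was also below 0 in all 6 (median -0.27). The medians of *COS4* (-0.0052), *COS6* (0.045) and *COS9* (0.043) were near 0, and *COS1* ranged from -0.36 to 0.64. Over all genes the median size of this effect was 0.187. Where both arrays were measured, replicate 1 averages both orientations, so a dye effect alike on both arrays cancels. In replicate 2 it does not cancel. The part of the dye effect in the spread of *COS2* was not tested. For *COS10* in BR-RF over BR-F, replicate 1 was a single array in the orientation of array 3 on each day. Its called ratios therefore carry its dye effect.

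**Figure D3:**
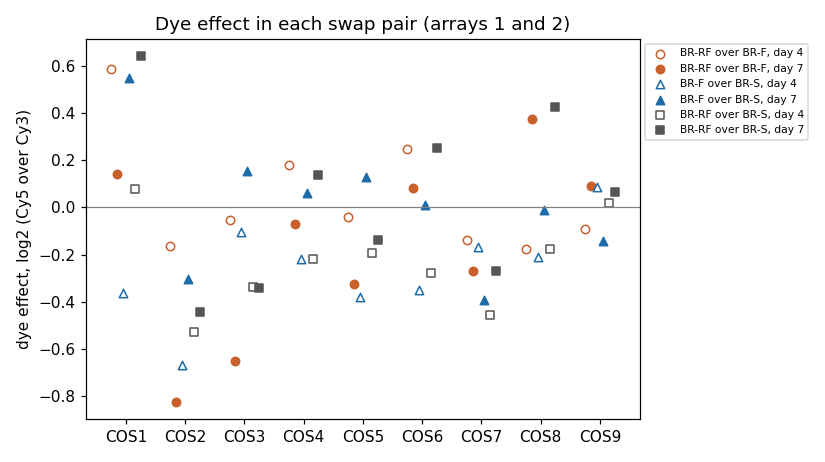
Dye effect (vertical axis, log2 of Cy5 over Cy3 after the strains cancel) of 9 *COS* genes in the swap pair of arrays 1 and 2 of each couple (colour and shape) on day 4 (open) and day 7 (filled); *COS10* had no complete pair. *COS2* and *COS7* lie below 0 in all 6 pairs, with *COS2* reaching -0.83. Errors of the single arrays remain in these values.

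The images of the arrays were analysed in 4 months according to the file headers, with all arrays 3 in one of them and the 3 arrays of any couple and day in 3 different months. Each array is therefore its own value within a month. The median of the *COS* genes on arrays 1 to 3 was -0.34, -0.43 and -0.65 in BR-RF over BR-F at day 4 and -0.62, -0.63 and -0.38 on day 7. For BR-F over BR-S it was 0.70, 0.18 and 0.50 on day 4 and 0.86, 0.60 and 0.60 on day 7. The array medians thus lay on 1 side of 0 in every month for the couples with BR-F. In BR-RF over BR-S the median lay at 0.32, -0.15 and 0.09 on day 4 and at 0.13, 0.0065 and 0.07 on day 7. With the month as a block over the single arrays, a term added after the data were seen, the call of *COS8* on day 4 in BR-RF over BR-F was lost (-0.64, adjusted p = 0.0674, limma), while 4 members were called there, *COS10* with *COS3*, *COS5* and *COS7*. The day 7 calls of *COS6* in BR-RF over BR-F (adjusted p = 0.153) and *COS5* in BR-F over BR-S (adjusted p = 0.0861) were lost as well (limma). Under this block the median of the members in BR-F over BR-S at day 4 was 0.13 in place of 0.49. In BR-RF over BR-F at day 4 the block called 455 of 4912 genes lower, against 152 of 4959 without it.

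Other genes of the wider DUP family, to which the *COS* genes belong, were also called in these couples, some of them with ratios above 1 in size. The DUP240 genes code for small membrane proteins, of which Mst27 and Mst28 bind the coats of transport vesicles and Ktd1 guards against the K28 killer toxin. Of 10 relatives tested in BR-RF over BR-F, 5 were lower on day 4 and 3 on day 7, with 0 higher (medians -0.99 and -0.47), beside 3.07% and 7.44% of all genes called lower. Of 9 and 10 tested in BR-F over BR-S, 4 were higher on day 4 and 4 on day 7, with 0 lower (medians 0.94 and 0.72), beside 2.97% and 6.08% of all genes called higher. *DFP4* (YHL044W) had the largest ratios of this group, with BR-RF over BR-F at -2.50 ± 0.17 on day 4 and -3.52 ± 0.17 on day 7 (adjusted p = 0.000607 and 2.51e-05, limma), and it was also lower in BR-RF over BR-S at day 7 (-1.05 ± 0.17, adjusted p = 0.00555, limma).

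*MST28* was called in each couple and day that contained BR-F. Its ratios were -1.76 ± 0.24 and -1.07 ± 0.24 in BR-RF over BR-F at days 4 and 7 and 1.67 ± 0.24 and 1.22 ± 0.24 in BR-F over BR-S. *KTD1* had -1.52 ± 0.24 and -1.70 ± 0.24 in BR-RF over BR-F and 1.61 ± 0.24 in BR-F over BR-S at day 4 (adjusted p = 0.00824, 0.00185 and 0.00539, limma). On day 7 its ratio in BR-F over BR-S was 0.71 ± 0.24 and not called (adjusted p = 0.0947, limma). *MST27* and *PRM8* were lower in BR-RF over BR-F at day 4 (-1.46 ± 0.20 and -1.21 ± 0.18) and not called on day 7 (-0.24 ± 0.20 and -0.47 ± 0.18), and they were higher in BR-F than in BR-S on both days, by 0.73 to 1.10. *COS12*, a family member outside the 10, passed in no couple or day. Its highest value was 0.95 ± 0.34 in BR-RF over BR-S at day 7 (adjusted p = 0.0817, limma). *DFP1*, *DFP3*, *PRM9* and *UIP3* were not called in any, and *UIP3* varied so much (SE 1.49) that no ratio could be read from it.

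The genes next to the *COS* genes on the chromosomes also had calls in these couples. The nearest measured gene on each side gave 17 neighbours. In BR-RF over BR-F, 5 of 15 tested were lower on each day and 0 higher (medians -0.63 and -0.37), beside 3.07% and 7.44% of all genes called lower. For BR-F over BR-S, 1 of 15 was higher on day 4 and 6 of 15 on day 7, with 0 lower (medians 0.42 and 0.71), beside 2.97% and 6.08% of all genes called higher. For BR-RF over BR-S, 2 of 14 were higher and 1 lower on each day, where 4.79% and 15.9% of all genes were called in either direction. *MPH2*, a maltose permease beside *COS7*, had the largest ratios among the neighbours, -1.99 ± 0.20 and -3.41 ± 0.20 in BR-RF over BR-F and 2.07 ± 0.20 and 1.68 ± 0.20 in BR-F over BR-S at days 4 and 7. It was also lower in BR-RF over BR-S, at -0.86 ± 0.20 and -1.14 ± 0.20 (adjusted p = 0.0392 and 0.00506, limma), where *COS7* had 0.31 and -0.16 and was not called.

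*COS6* lay between *PAU12*, a gene of the seripauperin cell wall family, and *YRF1-3*, a copy of the Y′ element helicase. Both were called lower in BR-RF over BR-F on each day, *PAU12* at -1.53 ± 0.27 and -1.69 ± 0.27 and *YRF1-3* at -1.52 ± 0.32 and -1.76 ± 0.32, against -0.34 and -0.49 for *COS6*. Beside *COS8*, the siderophore transporter gene *ARN2* had -0.68 ± 0.16 and -0.94 ± 0.16 in the same couple. On the other side of *COS8*, *YHL049C* was higher in BR-RF than in BR-S on both days (0.72 ± 0.18 and 0.77 ± 0.18), where *COS8* was not called. *PAU24*, next to *COS2*, was on day 7 lower in BR-RF over BR-F (-1.62 ± 0.27) and higher in BR-F over BR-S (1.13 ± 0.27), where *COS2* had -0.20 and -0.04. *PAU*, *YRF1* and *MPH* genes also have close copies whose RNA may share their spots.

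The 10 outermost annotated genes of all chromosome ends, *COS* members left out, set the family in its surroundings. Among them 274 were measured. In BR-RF over BR-F 13.2% of those tested were lower on day 4 and 23.9% on day 7, with medians of -0.18 and -0.24, and 1.7% and 5.46% were higher. With BR-F over BR-S 14% were higher on day 4 and 24.6% on day 7, with medians of 0.30 and 0.22, and 0% and 5.93% were lower. With BR-RF over BR-S 5.45% were higher and 2.48% lower on day 4, and 7.89% higher and 12.3% lower on day 7. Over all genes 3.07% and 7.44% were lower in the first of these couples and 2.97% and 6.08% higher in the second on days 4 and 7, and 4.79% and 15.9% were called in either direction in the third. The medians of the *COS* genes in these couples, -0.61, -0.55, 0.49 and 0.65, were farther from 0, and no test was made of this difference.

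**Figure D4:**
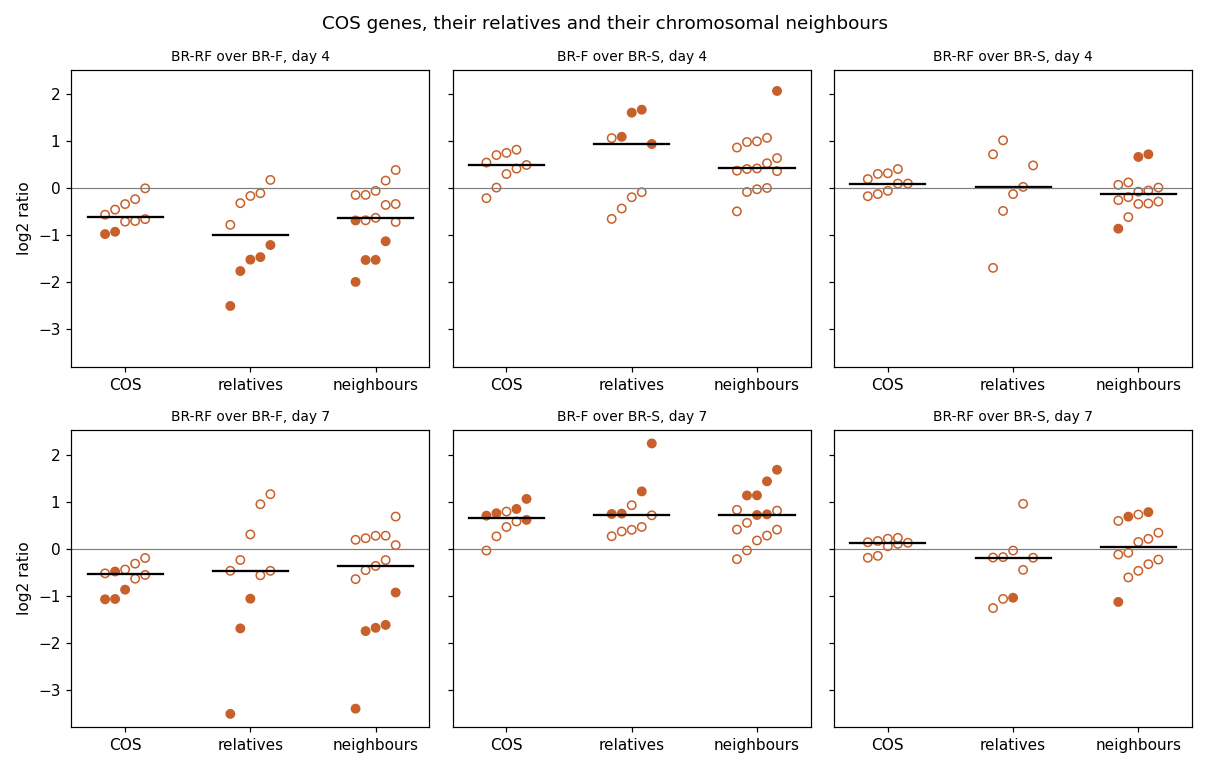
Log2 ratio (vertical axis) of the *COS* genes, of their DUP relatives and of their nearest measured chromosomal neighbours in the 6 couples and days; each circle is a gene, filled circles passed an adjusted p of 0.05, and lines mark medians. Medians lie below 0 for all groups in BR-RF over BR-F and above 0 in BR-F over BR-S, with *DFP4* (-3.52) and *MPH2* (-3.41) lowest on day 7.

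Genes that act with Cos proteins in the sorting of membrane proteins were followed as a list. Of 30 such genes 25 or 26 were tested in a couple and day. In BR-RF over BR-F 1 of 26 was called on day 4 (lower) and 3 of 26 on day 7 (2 lower and 1 higher), beside 5.89% and 15.2% of all genes called in either direction. *HSE1*, a subunit of the ESCRT-0 complex that binds ubiquitinated cargo, was lower in BR-RF on both days (-0.86 ± 0.19 each, adjusted p = 0.0228 and 0.0102, limma). *DOA4*, which takes ubiquitin off the cargo before it enters the vesicles, was lower in BR-RF over BR-F at day 7 (-1.11 ± 0.19, adjusted p = 0.00336, limma) and higher in BR-F over BR-S at day 7 (0.74 ± 0.19, adjusted p = 0.0326, limma). *MVB12*, a subunit of ESCRT-I, was higher in BR-RF over BR-F at day 7 (0.57 ± 0.16).

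*BSD2*, an adaptor of the ubiquitin ligase Rsp5, was lower in BR-F than in BR-S (-1.06 ± 0.24) and in BR-RF than in BR-S (-1.57 ± 0.24) on day 7. *VPS27*, the partner of Hse1, and *EAR1*, another Rsp5 adaptor, were also lower in BR-RF over BR-S at day 7, at -0.72 ± 0.13 and -0.76 ± 0.16. The medians of the list lay between -0.04 and 0.05 in all 6 couples and days. On day 4, for BR-F and for BR-RF over BR-S alike, 0 genes of the list were called, beside 4.69% and 4.79% of all genes. On day 7, 2 of 26 were called in the former couple and 3 of 26 in the latter, beside 11.2% and 15.9% of all genes.

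Of 25 genes of subtelomeric silencing, 18 to 21 were tested, and 1 was called in 1 of the 6 couples and days, where 4.69% to 15.9% of all genes were called in either direction. *HST1*, a deacetylase related to Sir2, had a higher level in BR-RF over BR-F at day 4 (1.15 ± 0.24, adjusted p = 0.0189, limma). The medians of the list ran from -0.11 to 0.10. Genes of spore formation, listed as a check for sporulating cells, were poorly measured, with 2 to 6 of 10 tested. *SPS4* was higher in BR-RF over BR-F at day 7 (0.81 ± 0.20), and *SPO19* (0.75 ± 0.17) was higher and *SPO77* (-0.54 ± 0.16) lower in BR-RF over BR-S at day 7. Their part in the *COS* ratios was not tested.

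The 5 genes whose ratios followed the *COS* median most closely over the 12 ratios lay away from the outermost genes of the chromosomes. The 12 ratios join couples in which the members lay below, above and near 0, so r also holds this pattern between the strains. Among 3825 other genes measured throughout, 96 had r of at least 0.9 with the median of the 9 members. The 5 highest were *ASN1* (asparagine synthetase, r = 0.977), *GDH1* (glutamate dehydrogenase of ammonium assimilation, 0.977), *SDH1* (succinate dehydrogenase, 0.974), *MGA1* (a factor of the heat shock factor type, 0.972) and *REG2* (a regulatory subunit of the phosphatase Glc7, 0.968). None of these 5 lay among the 10 outermost genes of a chromosome end, and the other genes with r of at least 0.9 are not placed here. *GDH1* had -1.05 ± 0.17 and -0.98 ± 0.17 in BR-RF over BR-F and 1.34 ± 0.17 and 1.58 ± 0.17 in BR-F over BR-S at days 4 and 7, and 0.13 and 0.34 in BR-RF over BR-S, where it was not called.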

How the data were processed

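The deposited array files hold, per the file headers, the median Cy3 and Cy5 intensity of 13056 spots, with the local background subtracted by the authors. The headers name TIGR Spotfinder for most arrays (version 3.1.1 for 2 and 3.2.1 for 14) and MIDAS 2.22 for 2. Whether the intensities of the 2 MIDAS arrays had already been normalised was not tested. The deposited value table holds the authors' log2 ratios after LOWESS in MIDAS and served as an alternative. Spots marked as poor or without positive signal were left out, a loess curve (span 0.3) was taken off the log2 ratios within every array, and spots that carry one gene were averaged. All ratios were turned to the same direction of a couple. Arrays 1 and 2 were averaged, although the study's methods call the 3 arrays biological replicates. The 12 resulting ratios were fitted with limma 3.58.1 (R 4.3.3, lmFit and eBayes, two-sided), which was also tested on simulated data. The fit had 6 residual degrees of freedom for genes with all 12 ratios, and fewer for genes such as *COS10* with ratios missing. The sources used here give no genome build of the arrays, and a reference annotation gave gene names and gene order only. Of 11 relatives, *DFP2* was not measured, and of 30 sorting genes *DID2* was not matched.

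Named were all members, the 5 genes most like them, DUP relatives, neighbours, and list genes that were called, up to 4 a list and comparison. Members and lists were chosen with earlier results of these data known. Figures were drawn with matplotlib.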

Additional observations from a re-analysis of the deposited data

How the results depend on the processing

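Each count of *COS* genes and each called ratio was recomputed under 16 other settings. Of 172 values for the 11 called ratios, 149 kept their call, 23 lost it and 0 changed direction. Among 732 values of ratios not called, 41 changed sign, and 73 became called, all in the direction of the first value. The median of all genes stayed within 0.077 of 0 under every setting. The call of *COS8* in BR-RF over BR-F at day 7 was kept throughout (adjusted p at most 0.0271, limma).

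In BR-RF over BR-F at day 4 the 2 called members became 5 with print-tip loess, at the study's thresholds and in the fit with strain terms, and 4 with the month of image analysis as a block. Calls over all genes also rose, from 152 lower of 4959 to 237 with print-tip loess and 455 of 4912 with the month. On day 7 the 4 became 7 with print-tip loess or the month as a block, 8 with the 3 arrays as replicates, 9 with strain terms and 2 with the deposited table. Over all genes, calls lower went from 371 of 4984 to 579 with print-tip loess, 841 of 4924 with the month and 490 with the 3 arrays. They were 691 of 4972 with strain terms and 388 of 4985 with the deposited table. In BR-F over BR-S at day 4 the 0 became 3 with print-tip loess, at the study's thresholds or with the month as a block (2 higher and *COS2* lower), 7 with strain terms and 2 with a dye term. Genes called higher there went from 129 of 4350 to 233 with print-tip loess and 217 of 4345 with the dye term. The month as a block, fitted to single arrays with arrays 1 and 2 as separate replicates, called 591 higher and 526 lower of 4333. On day 7 the 5 became 8 with print-tip loess or strain terms, where 440 and 623 of 4902 genes were called higher, against 298. In BR-RF over BR-S at day 7 the month as a block called 1 (*COS2*, lower), beside 824 of 4694 genes called lower. Of the differences between days, 2 in BR-F over BR-S passed the study's thresholds, beside 157 higher and 130 lower of 4179 genes. Over all settings the median of the members ran from -0.75 to -0.44 (day 4) and -0.80 to -0.47 (day 7) in BR-RF over BR-F, from 0.13 to 0.67 and 0.50 to 0.74 for BR-F over BR-S, and from -0.01 to 0.20 and 0.0050 to 0.19 for BR-RF over BR-S. Why these counts and medians moved was not tested.

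Leaving out 1 array of a couple and day gave 0 to 3 calls (BR-RF over BR-F, day 4), 2 to 5 (day 7), 0 to 3 (BR-F over BR-S, day 4) and 0 to 5 (day 7), and 0 to 0 in BR-RF over BR-S and for the differences between days. On day 7 in BR-F over BR-S *COS5* was lost without array 1 and *COS9* without array 2. Without array 1 and without array 2, genes called lower in BR-RF over BR-F were 162 of 4634 and 159 of 4576 on day 4. On day 7 they were 437 of 4889 and 305 of 4419. Genes called higher in BR-F over BR-S were 144 of 4057 and 144 of 4186 on day 4. On day 7 they were 276 of 4689 and 298 of 4419. Calls over all genes also fell without array 3. Without array 3 only 1 biological replicate is left, whose spread is taken from the other couples and days. The replicate numbers did not pair the samples (r of -0.54 to 0.32, 3 of 15 over 0.1). With the replicate number as a block the counts were 2 and 3 in BR-RF over BR-F at days 4 and 7. Over all genes 130 of 4938 and 333 of 4948 were then called lower. In BR-F over BR-S the counts were 0 and 4, beside 112 of 4341 and 253 of 4877 genes called higher. On day 7 the calls of *COS6* in BR-RF over BR-F (adjusted p = 0.0749) and *COS5* in BR-F over BR-S (adjusted p = 0.0672) were lost (limma). Elsewhere the count was 0. The number of arrays limits the precision.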
